A study of Mus musculus with 7 samples.

Results

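The regions described here were accessible in SST and VIP interneurons of the mouse cortex and less so in PV interneurons. They were selected on the measured ATAC-Seq values themselves. Reads on each reference region were scaled to CPM (counts-per-million) of the sample's reads in all regions. A region was kept when the lowest of its 4 SST and VIP values was at least 3 CPM and at least 1.5 times the higher of its 2 PV values. The rule kept 1336 of 323369 regions (0.413%), or 5.63% of the 23735 regions that reached 3 CPM in all 4 SST and VIP samples, called SST/VIP-accessible regions here. The same rule with the cell types exchanged kept 5206 regions shared by SST and PV, not VIP, and 1019 shared by PV and VIP, not SST.

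ATAC-Seq reads mark open chromatin, where the transposase can reach the DNA. Nuclei were purified by INTACT, in which a cell-type-specific Cre switches on the nuclear envelope tag SUN1-2xsfGFP-6xMYC and antibodies to GFP pull down the tagged nuclei. The F1 mice were crosses of the tag line with Sst-IRES-Cre (SST, 2 samples), Vip-IRES-Cre (VIP, 2 samples) or Pv-Cre (PV, 2 samples), so all 3 groups carried the tag and none was injected with virus. They were adults of 6 to 12 weeks, given as male in the sample labels and as male and female in the study's protocol. Each sample held the tagged nuclei of the whole cortex of a single animal, so a group is defined by the cells in which its Cre was active at any time. Transcripts came from 1 sample of single-nucleus RNA-Seq (snRNA-Seq) of V1 of C57BL/6J males of 6 to 10 weeks that had received an AAV9 library.

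SST, VIP and PV interneurons are inhibitory neurons that release GABA. SST and PV cells arise mostly in the medial ganglionic eminence and share regulators such as Lhx6 and Sox6, whereas VIP cells arise in the caudal ganglionic eminence and use others such as Prox1. SST cells target dendrites, VIP cells target mainly other interneurons, and PV cells target cell bodies and axon initial segments with fast-spiking output. The regions here therefore join cells of different origin and set apart a pair of related ones.

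Sequences are shown for a few members only, namely the promoters of Synpr, the nearest gene with the widest gap in transcripts, and of Npas1, a regulator of caudal eminence cells, members at Elfn1, and members with letters of POU, RFX or SOX factors. They come from the RefSeq copy of the GRCm38 genome and are the forward strand, 5′ to 3′. The first pair are the central 300 bases of the members at the starts of Synpr and Npas1, with the letters of SP and KLF zinc-finger factors (GGGCGG on either strand) in capitals.
Synpr, promoter, chr14:13284627-13284926: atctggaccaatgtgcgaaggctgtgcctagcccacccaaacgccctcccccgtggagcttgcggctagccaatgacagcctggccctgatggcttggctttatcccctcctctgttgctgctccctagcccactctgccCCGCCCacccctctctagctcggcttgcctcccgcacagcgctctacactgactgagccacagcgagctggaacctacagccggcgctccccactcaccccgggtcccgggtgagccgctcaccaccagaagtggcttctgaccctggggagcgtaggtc
Npas1, promoter, chr7:16475756-16476055: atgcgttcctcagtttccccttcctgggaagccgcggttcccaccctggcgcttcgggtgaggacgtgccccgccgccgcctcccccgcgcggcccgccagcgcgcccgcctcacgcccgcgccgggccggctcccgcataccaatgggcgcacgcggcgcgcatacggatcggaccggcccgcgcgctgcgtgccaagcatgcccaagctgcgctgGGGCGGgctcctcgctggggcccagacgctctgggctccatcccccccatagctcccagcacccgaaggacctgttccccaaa

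The next pair are examples of members inside the introns of Elfn1, not all of them, shown by their central 300 bases with letters of a POU factor (ATGCAAAT), an RFX factor (GTTGCCATG) or a SOX factor (ACAATGG). Those letters, on either strand, are in capitals.
Elfn1, intron, chr5:139932051-139932350: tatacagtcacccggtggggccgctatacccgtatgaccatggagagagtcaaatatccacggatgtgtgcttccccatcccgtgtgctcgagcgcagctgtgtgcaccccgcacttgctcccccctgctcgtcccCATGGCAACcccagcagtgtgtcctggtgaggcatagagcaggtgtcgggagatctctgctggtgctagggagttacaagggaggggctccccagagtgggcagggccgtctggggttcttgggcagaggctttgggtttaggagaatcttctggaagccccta
Elfn1, intron, chr5:139944651-139944950: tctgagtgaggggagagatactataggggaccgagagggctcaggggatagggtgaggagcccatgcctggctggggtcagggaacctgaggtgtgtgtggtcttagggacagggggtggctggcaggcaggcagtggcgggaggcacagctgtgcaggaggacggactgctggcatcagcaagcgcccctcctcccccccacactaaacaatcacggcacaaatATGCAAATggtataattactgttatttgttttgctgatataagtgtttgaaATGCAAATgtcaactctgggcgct

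The last 9 show 160 bases around the letters in 3 members for each of POU, RFX and SOX. They had the highest ratio over PV, with PV values floored at 3 reads, among members in introns and outside genes and not shown above. POU, RFX and SOX letters are in capitals. The POU examples are nearest to Rps6kc1, Maf and Tnks.
Rps6kc1, intron, chr1:190729683-190729842: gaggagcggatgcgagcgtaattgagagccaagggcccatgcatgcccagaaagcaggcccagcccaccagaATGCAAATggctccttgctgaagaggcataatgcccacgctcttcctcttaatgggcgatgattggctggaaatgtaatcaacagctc
Maf, outside genes, chr8:115747441-115747600: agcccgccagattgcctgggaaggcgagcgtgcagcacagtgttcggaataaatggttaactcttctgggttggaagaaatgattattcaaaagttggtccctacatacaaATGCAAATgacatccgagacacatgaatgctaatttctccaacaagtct
Tnks, outside genes, chr8:35123463-35123622: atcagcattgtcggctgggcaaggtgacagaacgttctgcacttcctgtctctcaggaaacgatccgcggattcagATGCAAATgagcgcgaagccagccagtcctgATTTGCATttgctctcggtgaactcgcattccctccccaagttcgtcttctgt

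The RFX examples are nearest to Abcc12, Myof and Palm.
Abcc12, outside genes, chr8:86390034-86390193: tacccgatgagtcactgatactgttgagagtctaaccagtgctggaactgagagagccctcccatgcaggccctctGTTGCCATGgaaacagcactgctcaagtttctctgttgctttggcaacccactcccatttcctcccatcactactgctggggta
Myof, intron, chr19:38015671-38015830: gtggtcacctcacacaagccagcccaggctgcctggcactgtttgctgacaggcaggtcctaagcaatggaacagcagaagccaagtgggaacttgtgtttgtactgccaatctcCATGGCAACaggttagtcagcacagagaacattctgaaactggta
Palm, intron, chr10:79803768-79803927: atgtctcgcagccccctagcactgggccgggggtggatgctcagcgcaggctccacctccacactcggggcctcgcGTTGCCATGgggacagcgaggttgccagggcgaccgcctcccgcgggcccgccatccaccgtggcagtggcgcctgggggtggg

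The SOX examples are nearest to Zpld1, Rps24 and Tbl1xr1, and the last also holds the POU letters.
Zpld1, outside genes, chr16:55321904-55322063: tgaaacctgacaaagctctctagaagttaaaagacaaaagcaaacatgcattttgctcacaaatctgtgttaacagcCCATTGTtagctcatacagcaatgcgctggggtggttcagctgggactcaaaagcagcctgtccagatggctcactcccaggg
Rps24, outside genes, chr14:24617541-24617700: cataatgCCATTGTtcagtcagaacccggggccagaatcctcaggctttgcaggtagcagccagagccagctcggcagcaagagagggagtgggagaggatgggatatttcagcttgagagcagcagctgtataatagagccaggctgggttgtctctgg
Tbl1xr1, outside genes, chr3:21824498-21824657: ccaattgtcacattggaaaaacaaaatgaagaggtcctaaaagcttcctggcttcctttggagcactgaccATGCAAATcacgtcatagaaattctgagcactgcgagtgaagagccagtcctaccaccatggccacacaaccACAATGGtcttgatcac

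The 6 samples held 1801883 to 2256073 reads in the reference regions. Within 2000 bases each group was the highest at its own gene. Summed over regions within 2000 bases of Sst, values were 22.6 and 24.8 CPM in SST, 2.48 and 2.68 in VIP, and 1.02 and 2.77 in PV. Vip had 15.4 and 18.3 CPM in VIP and 1.77 to 3.67 elsewhere. At Pvalb, PV was highest at 33.1 and 42.7 CPM, but SST (16.8 and 17.7) and VIP (12.4 and 16.1) were not near 0. In a wider window around Pvalb, VIP (95.3 and 106) was above PV (72.2 and 82.1). Lhx6 was at 52.9 to 68.8 CPM in SST and PV and at 5.96 and 2.68 in VIP. Regions within 5000 bases of markers of other cell types carried reads in every sample. Summed over 5 genes each, excitatory markers were at 122 to 169 CPM and microglial markers at 196 to 253 CPM.

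The members were moderately open in SST and VIP. Their median was 7.87 and 8.86 CPM in the 2 SST samples, 10.9 and 12.1 CPM in the 2 VIP samples, and 2.54 and 2.77 CPM in the 2 PV samples. All SST/VIP-accessible regions had medians of 13.9 to 14.8 CPM in the 6 samples, so the members sat below that level in SST and VIP as well as in PV. A lower value in such a pool of nuclei cannot be told apart as fewer nuclei with the region open or less access in each nucleus. No test was made of SST or VIP against PV, because that contrast selected the regions.

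**Figure D1:**
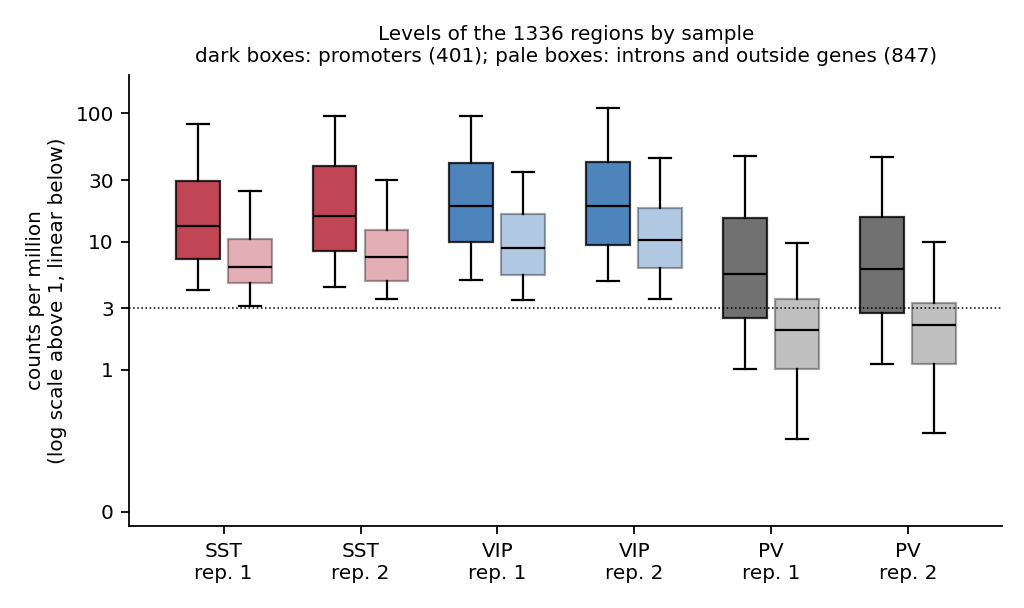
CPM of the members in each sample (log scale above 1, linear below), as boxes of the quartiles with the median as a line and whiskers from the 5th to the 95th percentile. Dark boxes are the 401 members at promoters and pale boxes the 847 in introns or outside genes, and the dotted line is the 3 CPM that the rule required of SST and VIP. In PV the medians were 5.59 and 6.10 CPM for promoters and 2.03 and 2.22 CPM for the others.

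Peaks, called by the authors in each sample by 2 programs, were not used by the rule but come from the same reads. A peak covered 83.6% and 83.8% of members in SST, 85.5% and 88.6% in VIP, and 45.7% and 40.6% in PV. In SST/VIP-accessible regions the shares were 84.0% to 85.7% in SST and VIP and 82.2% and 80.5% in PV, so those of members in SST and VIP were near this background. Of the 974 members with a peak in all 4 SST and VIP samples, 394 had none in either PV sample and 434 had one in both. A further 79 members had a peak in none of the 6 samples.

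The contrast with PV was modest in most members. With PV values floored at 3 reads, the median ratio of the lowest SST or VIP value to the higher PV value was 1.89. Without that floor, the ratio of the rule reached 2 in 617 members, 3 in 249 and 5 in 91. Reads were few on the PV side, with at most 3 reads in each PV sample for 342 members and none in either for 6. The cut was not a gap in the data. Just inside it, the promoter of Zdhhc12 (ratio 1.501) had 23.6 and 22.2 CPM in SST, 22.8 and 18.3 in VIP, and 12.2 in both PV samples. Just outside, the promoter of Ttll1 (1.499) had 19.4 and 19.1 CPM in SST, 25.3 and 25.9 in VIP, and 12.7 and 8.88 in PV. The 5 members nearest to the cut had ratios of 1.501 to 1.502 and the 5 regions below it 1.498 to 1.499.

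By position, the members were split between starts of genes and distal DNA. Of the 1336, 401 (30.0%) lay within 1000 bases of the start of a protein-coding gene, 88 (6.59%) overlapped an exon elsewhere, 376 (28.1%) lay in introns and 471 (35.3%) lay outside genes. Promoters made up 59.1% of SST/VIP-accessible regions and 8.28% of all reference regions, 18.0% of the regions shared by SST and PV, and 7.56% of those shared by PV and VIP. The members were 2.86% of the SST/VIP-accessible promoters and 10.1% of the SST/VIP-accessible regions in introns and outside genes. Reads in promoters also differed between samples, at 55.5% and 53.2% of reads in SST, 54.8% and 57.2% in VIP, and 52.1% and 49.8% in PV, and their part in the count of promoter members was not tested.

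The median distance from a member to the nearest start was 15660 bases, against 428 for SST/VIP-accessible regions, 26143 for those shared by SST and PV, and 37519 for those shared by PV and VIP. Within 10000 bases of a start lay 591 members (44.2%), and beyond 100000 bases lay 231 (17.3%). The X chromosome held 25 members (1.87%), against 2.44% of SST/VIP-accessible regions. Members were scattered: they named 1169 nearest genes of 21829 (5.36%), and 1032 of these genes were nearest to a single member. Only 15 members overlapped the next one, and 18 others lay within 5000 bases of it.

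The median of the authors' mean phyloP score over placental mammals was 0.144 for members, 0.176 for SST/VIP-accessible regions and 0.0642 for all reference regions. A score above 0.5 was held by 250 members (18.7%), against 21.0% of SST/VIP-accessible regions, 15.2% of those shared by SST and PV, 15.8% of those shared by PV and VIP, and 11.2% of all. In introns and outside genes, where coding sequence adds nothing, the median was 0.127 in 847 members, 0.0915 in SST/VIP-accessible regions, 0.0927 in those shared by SST and PV and 0.137 in those shared by PV and VIP. There, 15.7% of members and 13.7% of SST/VIP-accessible regions scored above 0.5. No test was made of these shares. None of the 287 GREs that the study screened in virus was a member. Members made up 0.413% of all reference regions. The study took those GREs from regions above 0.5 phyloP, ranked by SST signal over PV and VIP. The part of that choice in the count was not tested.

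Among the 6 members with the highest scores were those at Adk (1.96), Chd7 (1.81), Marcks (1.73) and 2610507B11Rik (1.57). Another (1.66) had Sox2 as its nearest gene, with the start 438244 bases away. Those at Adk, Chd7 and 2610507B11Rik overlapped exons. The Marcks region (chr10:37138654-37139333) covered the start of this gene for an actin-binding substrate of protein kinase C, with 16.3 and 27.0 CPM in SST, 44.7 and 59.9 in VIP, and 4.07 and 6.66 in PV. VIP exceeded SST beyond the replicate spread (log2 difference of SST over VIP -1.23 ± 0.31 SE, adjusted p = 0.00513, edgeR). The call was lost without VIP replicate 2 (adjusted p = 0.0581).

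With PV values floored at 3 reads, the 10 members with the highest ratio over PV held no promoter, and 3 overlapped exons, 2 lay in introns and 5 outside genes. Without the floor, the promoters of Npas1 (16.8) and Synpr (11.4) had higher ratios than any of these 10, on PV values of 0 to 0.555 CPM. An exon of Lrch1 (chr14:74857939-74858732) had 14.7 and 16.8 CPM in SST, 35.7 and 42.5 in VIP, and 1.53 and 1.66 in PV. A region 24067 bases upstream of Zpld1 (chr16:55321695-55322411) had 21.5 and 23.5 CPM in SST, 57.1 and 57.7 in VIP, and 2.54 and 2.77 in PV. Both were higher in VIP than in SST (adjusted p = 0.00327 and 0.00107, edgeR), without overlap. The region 126924 bases downstream of the start of Rps24 (chr14:24617304-24618077, phyloP 0.97) had a log2 difference of SST over VIP of 0.08 ± 0.32 (SE), at 18.9 and 19.9 CPM in SST, 17.9 and 19.7 in VIP, and 2.03 and 2.77 in PV. In an intron of Tmcc3 (chr10:94383768-94384463), SST had 16.8 and 19.9 CPM, VIP 11.4 and 14.3, and PV 0 and 1.11. Others were nearest to Chd9, 4930564D02Rik, Pirt, Gimap5 and Aoah.

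The 10 members with the highest levels were all promoters, and their contrast with PV was small. They included those of Ccnyl1, Stt3b, Mindy2, Zbtb11, Lins1, Selenoi, Aagab, Wdr1 and Vdac2. The promoter of Ccnyl1 had 166 and 164 CPM in SST, 163 and 168 in VIP, and 103 and 97.1 in PV, and that of Zbtb11 had 124 and 125 CPM in SST, 155 and 173 in VIP, and 77.8 and 73.8 in PV. The samples of PV were the lowest, as the rule requires, and the ratios were 1.58 and 1.60. Levels were not divided by the length of the region.

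The rule did not compare SST with VIP. It did bound the lowest of their 4 values, so differences between SST and VIP in members are not free of the rule. SST against VIP was tested in edgeR over all regions that passed a filter on low counts. Of the 1336 members 1213 passed, and the 123 others had a lowest value of at most 4.47 CPM. Among those tested, 220 (18.1%) were higher in VIP and 26 (2.14%) higher in SST at an adjusted p of 0.05. Over all 40338 regions tested the shares were 18.4% higher in VIP and 17.8% higher in SST, so the count of members higher in VIP was near the background and that of members higher in SST below it. Among the 23011 SST/VIP-accessible regions tested, 10.0% were higher in VIP and 10.1% in SST. The median log2 difference of SST over VIP was -0.28 in tested members (quartiles -0.80 and 0.10) and 0.00 in SST/VIP-accessible regions. The filter asked for at least 5.02 CPM in any 2 samples, so a member could pass through the cell type in which it was higher. Both VIP but not both SST samples reached that level in 235 tested members, which hold 89 of the 220 calls higher in VIP, and both SST but not both VIP samples in 85, which hold 13 of the 26 higher in SST. Such members were tested only because 1 cell type was high, so their calls are no independent support. In the 831 members where all 4 samples reached it, 131 (15.8%) were higher in VIP and 13 (1.56%) in SST, against 9.55% and 9.82% of SST/VIP-accessible regions that reached it likewise. With no filter on low counts 117 members were higher in VIP and 2 higher in SST. No share over all regions is given for that fit, so these counts have no background beside them.

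Over all 1336 members without any filter, both VIP samples exceeded both SST samples in 606 (45.4%) and both SST samples exceeded both VIP samples in 163 (12.2%). In the 23735 SST/VIP-accessible regions the shares were 31.1% and 24.7%. With TMM library sizes they were 730 (54.6%) and 95 (7.11%) in members, against 39.2% and 17.6%. By position, 37 of 385 tested promoters (9.61%), 17 of 78 exons (21.8%), 70 of 330 introns (21.2%) and 96 of 420 regions outside genes (22.9%) were higher in VIP, against 7.83%, 9.48%, 15.4% and 13.0% of SST/VIP-accessible regions at the same positions. Those higher in SST were 3, 1, 9 and 13 (0.779%, 1.28%, 2.73% and 3.10%), against 9.87%, 10.0%, 9.75% and 10.9%. All these shares by position include regions that passed the count filter only through the cell type in which they were higher. Summed over 4 genes, reads near markers of oligodendrocyte precursors were also higher in VIP (122 and 114 CPM) than in SST (79.8 and 77.1) or PV (80.9 and 79.9). Summed over 5 genes, those near oligodendrocyte markers were lower in VIP (139 and 137 CPM) than in SST and PV (188 to 204). Likewise summed over 5 genes, reads near astrocyte markers were higher in VIP (81.4 and 81.8 CPM) than in SST (64.0 and 62.5) and at 80.9 and 80.5 in PV. Those near microglial markers were at 213 and 206 CPM in VIP, 238 and 253 in SST and 196 and 221 in PV. Their part in these counts was not tested.

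Some members were many times more open in VIP and only just reached the level required in SST. Among the 6 largest differences, those near Pdcd6ip, Fam19a5, Meis2 and Triobp passed the count filter through VIP alone. The largest difference lay 361472 bases from the start of Pdcd6ip (chr9:113346400-113347143), with 4.72 and 3.10 CPM in SST, 71.5 and 93.4 in VIP, and 1.53 and 1.66 in PV (log2 difference -4.37 ± 0.35 SE, adjusted p = 3.86e-07). The next lay 411531 bases downstream of the start of Fam19a5 (chr15:88036393-88037128). There, SST had 5.77 and 3.99 CPM, VIP 73.0 and 75.1, and PV 1.53 and 2.22 (-3.90 ± 0.34, adjusted p = 7.28e-07, edgeR). In both, SST lay nearer to PV than to VIP. A region 116242 bases upstream of Meis2, a homeodomain factor, was more conserved (chr2:116181702-116182460, phyloP 1.13), with 3.67 and 3.55 CPM in SST, 20.4 and 38.4 in VIP, and 0.508 and 0.555 in PV. The other 3 of the 6 largest were near Tab2 (-3.30), in an intron of Triobp (-3.08) and over an exon of Ostf1 (-2.84).

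The 6 largest differences towards SST ran from 1.63 to 2.91, and all but that near Bglap2 passed the count filter through SST with at least 1 VIP sample under its level. A region 79465 bases upstream of Spata13 (chr14:60554125-60554947) had 33.1 and 33.2 CPM in SST, 3.48 and 5.36 in VIP, and 2.03 and 0.555 in PV (2.91 ± 0.40, adjusted p = 4.05e-05). An intron of Zfp423, a zinc-finger factor, held a conserved region (chr8:87794328-87795074, phyloP 1.23) with 14.7 and 23.9 CPM in SST, 3.97 and 4.47 in VIP, and 1.53 and 2.22 in PV (2.22 ± 0.43, adjusted p = 0.000702). The samples of SST and VIP did not overlap in either. The next were near Rpl34 (2.05), Cep152 (1.98), Bglap2 (1.76) and Wdr64 (1.63). The Cep152 call was lost without VIP replicate 2 or SST replicate 1 (adjusted p = 0.0647 and 0.0502), the Wdr64 call without either VIP sample (0.0652 and 0.0647), and all 4 with no filter on low counts (0.0727 to 0.149). A log2 difference of at least 1 in size was fitted for 245 members, 212 towards VIP (17.5% of those tested) and 33 towards SST (2.72%), against 7.57% and 9.04% of SST/VIP-accessible regions. These shares too include regions that passed the filter only through the cell type in which they were higher.

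Members were densest at Elfn1, which encodes a postsynaptic leucine-rich repeat protein that sets release at synapses onto interneurons by recruiting presynaptic metabotropic glutamate receptors. This locus was singled out after the values were seen. Elfn1 (chr5:139907943-139974722) was the nearest gene of 7 members, the most of any gene, and its neighbour Mad1l1 (chr5:140008689-140321552), which encodes a spindle checkpoint protein, of 3. A window of 500000 bases here held 11 members, and no window that did not overlap this one held more than 5. Within 600000 bases of the start of Elfn1 lay 236 reference regions, of which 33 were SST/VIP-accessible, 13 were members, 2 were shared by SST and PV, and 1 by PV and VIP.

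The 4 members within Elfn1 lay in introns. The region 24.3 kb downstream of the start had 17.8 and 20.8 CPM in SST, 11.4 and 10.7 in VIP, and 5.08 and 4.99 in PV. At 36.9 kb, where the sequence above holds the POU letters in 2 places, SST had 6.82 and 5.32 CPM, VIP 13.9 and 10.3, and PV 0.508 and 1.11. The samples of SST and VIP did not overlap at either place, but neither difference passed the test (0.83 ± 0.35, adjusted p = 0.0675, and -0.97 ± 0.43, adjusted p = 0.0851). The regions at 4.32 and 24.9 kb had overlapping SST and VIP values of 3.97 to 9.43 CPM, and PV values of 2.22 to 4.07 CPM.

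The other 6 lay in introns of Mad1l1. At 154 kb, SST had 4.72 and 5.32 CPM, VIP 33.3 and 34.4, and PV 0.508 and 1.66 (-2.71 ± 0.38, adjusted p = 5.13e-05). At 166 kb, SST had 5.77 and 6.65 CPM, VIP 18.4 and 19.2, and PV 2.03 and 0 (-1.56 ± 0.44, adjusted p = 0.00956, but 0.0611 in DESeq2 and 0.0785 with no filter on low counts). At 315 kb the order was the reverse, with 9.97 and 15.1 CPM in SST, 3.97 and 4.92 in VIP, and 0.508 and 0.555 in PV (1.52 ± 0.45, adjusted p = 0.0127), and its phyloP score was 0.84. That call was lost without VIP replicate 1 (adjusted p = 0.103), VIP replicate 2 (0.0730) or SST replicate 2 (0.119). The region at 194 kb did not pass (0.31 ± 0.36, adjusted p = 0.525), at 15.7 and 16.4 CPM in SST, 12.9 and 13.4 in VIP, and 3.05 and 1.11 in PV. In CPM, the regions at 154 and 315 kb thus leaned to different cell types. Each passed the count filter only through the cell type in which it was higher, so these calls are no independent support.

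**Figure D2:**
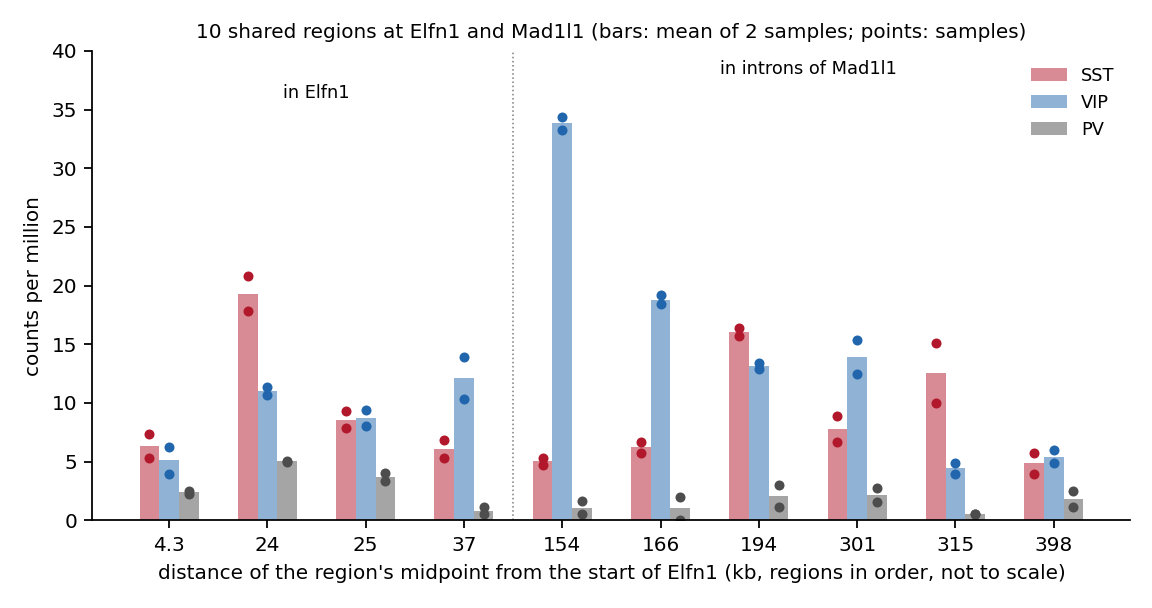
CPM (vertical axis) in SST, VIP and PV at the 10 members nearest to Elfn1 or Mad1l1, ordered by distance from the start of Elfn1 in kb (horizontal axis, not to scale). Bars are means of 2 samples and points the samples. PV was lowest at every region, VIP reached 33.3 and 34.4 CPM at 154 kb, and SST was the highest at 315 kb.

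Letters of 17 motifs were searched on both strands in the central 300 bases of every region, and the shares below are for regions in introns and outside genes. A match describes the sequence and is not evidence of binding. POU factors, with homeodomains, include regulators of neuronal identity, RFX factors bind the X-box and SOX factors bend DNA through an HMG box. The POU letters ATGCAAAT were in 53 of 847 members (6.26%, 95% exact binomial interval 4.72 to 8.11), against 2.62% of SST/VIP-accessible regions, 1.61% of those shared by SST and PV, 1.48% of those shared by PV and VIP and 2.01% of all. The RFX letters GTTGCCATG were in 33 members (3.90%, 2.70 to 5.43), against 1.84%, 0.671%, 0.799% and 0.671%. The SOX letters ACAATGG were in 47 members (5.55%, 4.11 to 7.31), against 2.82%, 1.85%, 3.20% and 3.93%. Intervals cover counting error only.

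These 3 motifs were singled out from the 17 for their shares in members after these were seen. At least 1 of them was held by 125 members (14.8%), of which 8 held more than 1, against 7.09% of SST/VIP-accessible regions, 4.08% of those shared by SST and PV and 5.48% of those shared by PV and VIP. Median GC content was 53.0% in these members, 54.3% in SST/VIP-accessible regions, 52.0% in those shared by SST and PV and 53.3% in those shared by PV and VIP. No test was made of these shares. Of the POU regions shown, the one in an intron of Rps6kc1 had 8.40 and 8.86 CPM in SST, 48.7 and 53.2 in VIP, and 1.02 and 1.11 in PV. The one near Maf had 8.92 and 7.98 CPM in SST, 7.45 and 8.49 in VIP, and 1.02 and 1.11 in PV. SST and VIP overlapped at Maf and did not at Rps6kc1.

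The nuclear receptor letters AGGTCA, which lie within the estrogen-related receptor letters TCAAGGTCA, were in 62 members (7.32%), against 11.8% of SST/VIP-accessible regions, 13.0% of those shared by SST and PV and 22.7% of those shared by PV and VIP. The MEF2 letters CTATTTATA were in 2 members (0.236%), against 0.539%, 0.671% and 1.60%, and the full TCAAGGTCA in 3 (0.354%), against 0.383%, 0.483% and 1.14%. The MAF letters TGCTGAC were in 7.32% of members, 7.68% of SST/VIP-accessible regions and 7.44% of all, and in 10.1% of those shared by SST and PV and 12.7% of those shared by PV and VIP. AP-1 letters (TGANTCA), read by activity-regulated factors, were in 19.7% of members, 20.1% of those shared by SST and PV, 14.5% of those shared by PV and VIP and 15.1% of SST/VIP-accessible regions. The E-box CAGCTG was in 48.3% of members, 50.9% of those shared by PV and VIP, 41.1% of those shared by SST and PV, 40.4% of SST/VIP-accessible regions and 26.2% of all.

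**Figure D3:**
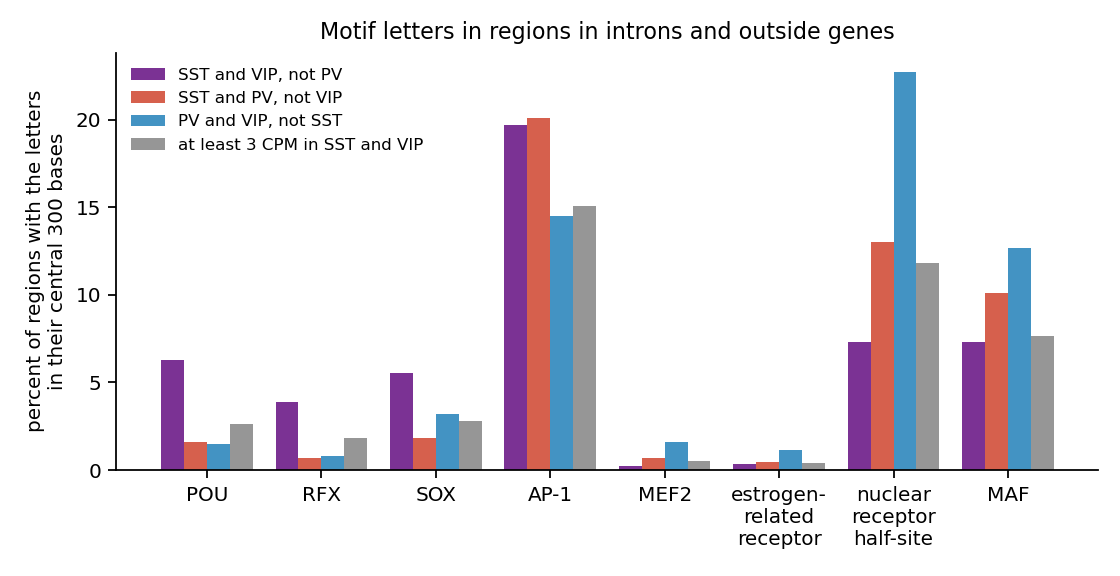
Percent of regions in introns and outside genes (vertical axis) whose central 300 bases held the letters of each of 8 motifs, for the members, the sets shared by SST and PV and by PV and VIP, and SST/VIP-accessible regions. The members had the tallest bars for POU (6.26%), RFX (3.90%) and SOX (5.55%). Theirs were the shortest for MEF2 (0.236%) and the estrogen-related receptor (0.354%), and for the nuclear receptor and MAF letters (7.32% each). The remaining motifs, EGR among them, are not drawn.

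Among the 401 promoter members, 284 (70.8%) held the SP and KLF letters GGGCGG, against 67.5% of SST/VIP-accessible promoters, 43.1% of promoters shared by SST and PV, and 36.4% of those shared by PV and VIP. Median GC content was 66.0%, 66.7%, 61.7% and 61.7%. The remaining motifs were a homeodomain TAATTA (5.90% of members in introns and outside genes), CAGATG (34.5%), TTGGCA of NFI factors (22.6%), CNAGNGGGC of CTCF (5.31%), TGACGTCA of CREB (1.18%), CTGTCA of MEIS (24.7%) and GCGTGGGCG of EGR (1.06%, or 9 members). In SST/VIP-accessible regions at the same positions, these were 5.11%, 29.6%, 20.7%, 9.58%, 1.36%, 22.8% and 0.515%. The EGR letters were in 0.161% of those shared by SST and PV and 0.114% of those shared by PV and VIP.

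The nearest genes were then read in nuclei of V1, gated on transcripts of Sst (527 nuclei), Vip (291) or Pvalb (229), each with Gad1 or Gad2. This is 1 sample with no replicate animals told apart, so levels, given as CPM of the UMIs of a gate, carry exact Poisson intervals for counting error and no test. Of 1169 nearest genes 1111 were in the table and 555 had at least 30 transcripts (UMIs) over the 3 gates. Both the Sst and the Vip level were at least 1.5 times the Pvalb level, floored at 3 UMIs, for 138 of them (24.9%, 95% exact binomial interval 21.3 to 28.7). The share was 10.7% of all 7457 genes with as many UMIs, 10.8% for genes nearest to SST/VIP-accessible regions, 13.0% for those nearest to regions shared by SST and PV, and 65 of 433 genes for PV and VIP. The share was 32.8% (65 of 198) at promoter members, 21.2% (74 of 349) at members in introns and outside genes (10.6% and 14.4% for SST/VIP-accessible regions of the same positions), and 31.2% (85 of 272) for starts within 10000 bases. Genes higher in Pvalb than in both others were 49 (8.83%), against 11.5% of all genes.

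The gates differed in depth, with a median of 1054 UMIs per nucleus in Sst, 771 in Vip and 1391 in Pvalb. Sst was at 215 CPM of UMIs in nuclei gated as oligodendrocytes, against 16033 in the Sst gate, and whether free RNA or doublets gave those UMIs was not tested. Of 5 vascular markers, Rgs5 was at 295 CPM of UMIs in the Sst gate, 3.87 in Vip and 2.90 in Pvalb, and the other 4 were at 7.98 to 112 in Sst and at most 31.0 in the others. The part of these in the shares was not tested. Of 25866 distinct barcodes among kept nuclei, 5476 occurred in more than 1 of the 10 libraries.

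Synpr, which encodes the synaptic vesicle protein synaptoporin, had the widest gap. It was at 1215 CPM of UMIs in Sst nuclei (interval 1130 to 1305), 2645 in Vip (2450 to 2851) and 5.81 in Pvalb (0.703 to 21.0). The member over its start, 3 bases from it, had 5.77 and 13.3 CPM in SST, 19.4 and 18.8 in VIP, and 0.508 and 0 in PV. Elfn1 was next, at 348 (303 to 398), 259 (201 to 329) and 5.81 (0.703 to 21.0) CPM of UMIs. Elfn1 was at 2.09 in glutamatergic nuclei, 4.48 in astrocytes and 41.6 (22.7 to 69.8) in oligodendrocyte precursors, whereas Synpr was at 51.7 in glutamatergic nuclei and 90.8 (70.9 to 114) in oligodendrocytes, with an interval of 69.9 to 141 in the precursors. In all 10 libraries the Sst and Vip levels of both genes exceeded the Pvalb level, although the libraries are not replicates.

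The 10 genes with the widest gap also held Zcchc12, Cdh4, 6330403K07Rik, Syt5, Grin3a, Stim2 and Gng4. Zcchc12, a zinc-finger coactivator on the X chromosome, was at 203, 213 and 11.6 CPM of UMIs in Sst, Vip and Pvalb nuclei, and its promoter member at 7.35 and 7.98 CPM in SST, 5.46 and 4.92 in VIP, and 2.54 and 1.66 in PV. Grin3a, an NMDA receptor subunit, was at 1049, 69.7 and 0 CPM of UMIs, and its promoter member at 14.2 and 16.0 CPM in SST, 14.9 and 13.4 in VIP, and 8.14 and 3.88 in PV (0.12 ± 0.37, adjusted p = 0.824). Cdh4, a cadherin, was at 160, 105 and 8.71 CPM of UMIs.

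**Figure D4:**
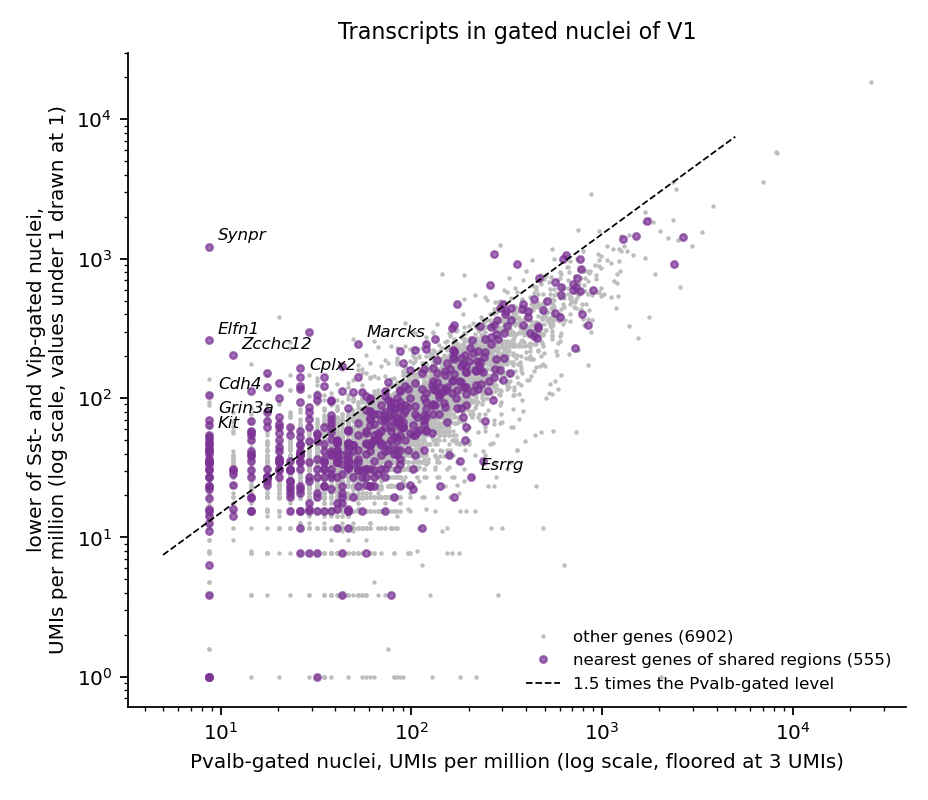
Lower of the Sst- and Vip-gated levels (vertical axis) against the Pvalb-gated level floored at 3 UMIs (horizontal axis), both in CPM of UMIs on log scales, for the 7457 genes with at least 30 UMIs, of which 555 were nearest genes of members. Genes above the dashed line were at least 1.5 times higher in both Sst and Vip nuclei, as held for 24.9% of the nearest genes, with Synpr and Elfn1 at the upper left and Esrrg below.

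Transcripts also leaned to Vip over Sst among nearest genes. The Vip level was at least 1.5 times the Sst level for 134 of 555 (24.1%), against 14.4% of all genes, and the Sst level at least 1.5 times the Vip level for 90 (16.2%), against 22.0%. Nearest genes of members higher in VIP gave 31 of 100 (31.0%) and 20 of 100 (20.0%). Those members include ones that passed the count filter only through VIP. Kit, a receptor tyrosine kinase singled out after its values were seen, was at 54.3, 1657 and 8.71 CPM of UMIs in Sst, Vip and Pvalb nuclei. Its member (chr5:75449831-75450712) lay 124644 bases upstream, with 14.7 and 14.6 CPM in SST, 49.1 and 44.7 in VIP, and 6.61 and 7.77 in PV (-1.65 ± 0.30, adjusted p = 0.000379). For members higher in SST only 7 genes had enough UMIs, of which 2 were higher in Vip nuclei and 1 in Sst nuclei by the same measure.

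Of 140 genes on 10 lists of interneuron genes, 19 (13.6%) were nearest to a member, against 5.36% of all genes. The lists were chosen with earlier results of these data known, so this share is no independent support. The share of list genes nearest to regions of the other sets is not given, so the difference cannot be called particular to members. Regulators of medial eminence cells had 3 of 8: Sox6, Maf and Etv1. The region 39657 bases upstream of Maf (phyloP 0.88), whose POU letters are shown above, had PV values of 1.02 and 1.11 CPM. The region 241342 bases downstream of the start of Sox6 had 10.5 and 8.86 CPM in SST, 7.94 and 8.49 in VIP, and 3.56 and 4.99 in PV. None of the 3 passed the test of SST against VIP (adjusted p = 0.656 to 0.931, edgeR), which does not show an equal level. Transcripts in Sst, Vip and Pvalb nuclei were at 30.3, 3.87 and 43.6 CPM of UMIs for Sox6, 485, 333 and 386 for Maf, and 46.3, 34.9 and 40.7 for Etv1, so that Pvalb nuclei were the lowest for none of the 3.

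Regulators of caudal eminence cells had 3 of 10, namely Npas1, Npas3 and Tcf4. The member at the start of Npas1, a bHLH-PAS transcription factor, had 11.5 and 9.31 CPM in SST, 21.8 and 17.9 in VIP, and 0 and 0.555 in PV. Its transcripts were few, with 9 UMIs in Sst nuclei, 9 in Vip and 0 in Pvalb. Npas3 was at 73.5, 155 and 20.3 CPM of UMIs, and the member at its start (phyloP 1.08) at 4.72 and 7.54 CPM in SST, 6.45 and 5.81 in VIP, and 3.05 and 2.22 in PV. Tcf4 was at 1464, 2474 and 1507 CPM of UMIs, so that Pvalb nuclei were not the lowest. None of the 3 members passed the test of SST against VIP (adjusted p = 0.0641 to 0.982, edgeR), although the samples did not overlap at Npas1.

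Genes of PV interneurons had 1 of 12, a member in an intron of the nuclear receptor gene Esrrg with 10.5 and 8.42 CPM in SST, 6.95 and 9.83 in VIP, and 4.07 and 3.33 in PV. Its transcripts ran the other way, at 36.7, 27.1 and 206 CPM of UMIs in Sst, Vip and Pvalb nuclei. Of 18 neuropeptides only Pdyn, which encodes prodynorphin, had a member. That promoter had 8.92 and 9.75 CPM in SST, 4.47 and 3.58 in VIP, and 1.53 and 1.11 in PV, and was higher in SST (1.24 ± 0.46, adjusted p = 0.0418). The call was lost when any 1 of the 6 samples was left out (adjusted p = 0.0570 to 0.300) and in DESeq2 (0.307). The promoter passed the count filter through SST alone, so the call is no independent support. Pdyn transcripts were at 382, 0 and 2.90 CPM of UMIs. None of 19 peptide receptors had a member.

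Receptors for acetylcholine, serotonin and noradrenaline had 2 of 16, both α1-adrenergic. The stronger of 2 members upstream of Adra1a had 26.8 and 17.7 CPM in SST, 32.3 and 54.5 in VIP, and 5.59 and 4.44 in PV (-0.95 ± 0.32, adjusted p = 0.0267), and the weaker was also higher in VIP (-1.23 ± 0.43, adjusted p = 0.0344). Neither call held without VIP replicate 2 (adjusted p = 0.336 and 0.128) or in DESeq2 (0.0942 and 0.208), and the weaker was also lost without VIP replicate 1 (0.0668) or SST replicate 1 (0.104). The weaker Adra1a member passed the count filter through VIP and not through SST. The member 226072 bases upstream of Adra1b had 24.7 and 20.4 CPM in SST, 27.3 and 41.6 in VIP, and 7.12 and 7.77 in PV. It did not pass the test (adjusted p = 0.139, edgeR). Adra1b transcripts were at 41.5, 511 and 26.1 CPM of UMIs, and Adra1a at 63.9, 77.4 and 102.

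The list of calcium-binding proteins had 3 of 7 genes: Calb1, Necab2 and Cplx3, the last a complexin, which binds the SNARE complex of vesicle release. The exon of Cplx3 had 4.72 and 4.43 CPM in SST, 22.8 and 23.2 in VIP, and 2.54 and 2.22 in PV (-2.29 ± 0.39, adjusted p = 0.000237), yet only 2 UMIs in the 3 gates together. The Cplx3 region passed the count filter through VIP alone, so its call is no independent support. Glutamate receptors had 2 of 11 (Grm2 and Grm8), adhesion genes 2 of 24 (Cntnap2 and Cdh13) and potassium channels 2 of 16 (Kcnd3 and Kcnq3). An intron of Cdh13 was higher in VIP, with 6.30 and 7.54 CPM in SST, 31.8 and 28.2 in VIP, and 2.03 and 3.33 in PV (-2.07 ± 0.36, adjusted p = 0.000315), while its transcripts were higher in Sst nuclei at 500, 178 and 90.0 CPM of UMIs. Kcnd3, the Kv4.3 channel of A-type current, was at 156, 128 and 20.3 CPM of UMIs, with an intronic member whose SST and VIP values overlapped (0.00 ± 0.41, adjusted p = 0.998). Kcnq3 was at 350, 163 and 276 CPM of UMIs, lower in Vip than in Pvalb nuclei. Its promoter had 46.7 and 59.8 CPM in SST, 70.5 and 78.7 in VIP, and 26.4 and 23.9 in PV.

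After Elfn1, the genes with most members were Tcerg1l (5), Zcchc14 (4) and Zfp516 (4), and 22 genes were nearest to at least 3. All 5 members of Tcerg1l, which encodes a transcription elongation regulator, were open in both cell types, with SST and VIP values of 3.97 to 20.4 CPM and none past the test, yet the gene had 2 UMIs in the 3 gates. Around Zfp516, a zinc-finger gene, 3 of 4 members were higher in VIP, among them one 61566 bases upstream with 4.20 and 3.55 CPM in SST, 21.8 and 33.1 in VIP, and 1.02 and 1.66 in PV (-2.79 ± 0.41, adjusted p = 8.13e-05, edgeR). That region passed the count filter through VIP alone, so the count of 3 rests in part on the filter. Of 3 members downstream of the zinc-finger regulator Bcl11a, the middle one had 4.72 and 5.32 CPM in SST, 30.8 and 41.6 in VIP, and 1.53 and 2.22 in PV (-2.80 ± 0.38, adjusted p = 3.28e-05), and the others did not pass. The middle Bcl11a region passed the count filter through VIP and not through SST, so its call is no independent support. Cacna1c, an L-type calcium channel, had 3 intronic members, of which 2 were higher in VIP. Whether these passed the filter through VIP alone is not given. Of all members tested 18.1% were higher in VIP, and of all regions tested 18.4%. Zfp516 and Cacna1c were reached through their number of members, and their counts were not tested against those shares.

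At Cplx2, a complexin of synaptic vesicle release, the 3 members lay 45251 bases upstream, at the promoter and in an intron, and none passed the test of SST against VIP (adjusted p = 0.229 to 0.802). The promoter had 25.7 and 19.5 CPM in SST, 15.9 and 15.6 in VIP, and 4.58 and 7.77 in PV, and transcripts were at 142, 271 and 26.1 CPM of UMIs. Marcks, at the conserved promoter above, was at 244, 469 and 52.3 CPM of UMIs. Tmsb10, an actin-sequestering thymosin named after its values were seen, had 2 overlapping members at its start, the larger with 35.7 and 64.3 CPM in SST, 66.5 and 62.6 in VIP, and 4.58 and 6.66 in PV, and transcripts at 63.9, 50.3 and 8.71 CPM of UMIs. Other genes with several members had Sst, Vip and Pvalb levels of 166, 124 and 128 CPM of UMIs for Cacna1c, 324, 100.7 and 98.8 for Bcl11a, and 112, 213 and 148 for Fam19a5, so that Pvalb nuclei were not the lowest in every gene.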

How the data were processed

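The authors trimmed ATAC-Seq reads with Trimmomatic 0.33, aligned them to GRCm38 (mm10) with Subread 1.4.6-p3, removed duplicates with SAMtools, and counted them with featureCounts on 323369 regions merged from peaks of these and other cortical samples. The deposited counts have no normalization. The deposited peak lists hold peaks called by both MACS2 and HOMER in each sample, with a −log10 value as MACS2 writes it. The deposited phyloP score is the authors' mean over each region. The deposited snRNA-Seq counts are UMIs per nucleus. The 1164 viral barcode columns and the 2 columns of the authors' own specificity results were not used.

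Counts were scaled to the column sum and regions selected as stated. The members and the gene, marker and motif lists were chosen with earlier results of these data known. SST was tested against VIP with edgeR 4.0.16 in R 4.3.3 (quasi-likelihood test, TMM, filterByExpr by cell type) over all 6 samples, with Benjamini-Hochberg adjustment over 40338 regions and a biological coefficient of variation of 0.181. Each sample is 1 animal, so p-values measure the spread between 2 animals a group. DESeq2 1.42.0, other scalings and filters, and the omission of each sample were alternatives.

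Positions used GENCODE vM21 protein-coding genes, coordinates are 1-based GRCm38, and sequences came from RefSeq. Nuclei with more than 200 UMIs were kept, 32335 of 47348 barcodes. Gates required at least 2 UMIs of Sst, Vip or Pvalb, at least 1 of Gad1 or Gad2, and none of the other markers or Slc17a7. Other cell types were gated on at least 3 UMIs of their markers in all. Doublets were not called. Intervals and floors cover counting error only. Python 3.11.15, pandas 2.3.3, NumPy 2.4.6, SciPy 1.17.1, matplotlib 3.10.9 and bedtools 2.31.1 were used.

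Regions named were the 10 with the highest ratio over PV, the 10 with the highest lowest level, up to 6 in each direction for SST against VIP, the 6 with the highest phyloP score, up to 3 for each gene list, and 5 on each side of the ratio of 1.5. Genes named were those nearest to these, the 10 with most members, list genes with a member, and the 10 with the widest gap in transcripts. Some items that this rule names are not reported here.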

Additional observations from a re-analysis of the deposited data

How the results depend on the processing

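The number of members was set by the rule. It was 831 with a lowest level of 5 CPM and 617 with a ratio of 2, and between 1587 and 3501 when a sample was left out, which relaxes the rule. Without SST replicate 1 it was 3501, without SST replicate 2 2046, without PV replicate 1 2458 and without PV replicate 2 2733. TMM library sizes gave 1884.

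Of SST against VIP, the 246 calls became 119 with no filter on low counts and 120 in DESeq2. Those higher in VIP (220) became 117 and 113, and those higher in SST (26) became 2 and 7. For all alternative fits no share over all regions is given. A loss of calls particular to members thus cannot be told apart from a general one. Leaving out a sample gave 141 to 320 calls, 131 to 300 higher in VIP and 7 to 40 higher in SST. Without VIP replicate 2 the calls were 141, 131 higher in VIP and 10 higher in SST. Calls higher in SST were 7 without VIP replicate 1, 16 without PV replicate 1 and 40 without SST replicate 1. Samples of different groups share replicate numbers, but deviations of same-numbered samples did not move together (correlations 0.0287, 0.0225 and -0.0371), and a fit with a replicate block gave 233 calls (213 and 20). The median stayed below 0 in every alternative run, from -0.47 to -0.18. Of 444 alternative values for 37 called regions named in the text or by the rule, 385 kept the call, 59 lost it and 0 reversed. The lost calls lay in 14 regions, and in 11 of them leaving out 1 sample lost the call. Pdyn and Pirt were also lost under the replicate block (adjusted p = 0.0560 and 0.0561). A group left with 1 sample was assumed to vary like the others.

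The share above 0.5 phyloP was 15.7% without exons and promoters, and promoters were 32.7% with a window of 2000 bases. Over the whole region, POU letters were in 10.0% of members and SOX letters in 11.2% (6.09% and 9.23% of SST/VIP-accessible regions). The share of nearest genes higher in Sst and Vip nuclei was 23.3% to 26.2% under its 3 alternatives. Over all genes it was 12.8% with a gate of 3 marker UMIs and 9.17% with at least 100 UMIs. At 2 samples a group and few reads, small differences were not detectable.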
